A study of Mus musculus with 8 samples.

Results

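Of 501380 windows of 1 kb in the mouse liver genome, 876 had mean CpG methylation levels that lay 35 percentage points or more apart among livers of mice kept on a normal diet. A window entered the comparison when it held 20 or more measured cytosine rows and when no normal-diet library had more than 50% of those rows at exactly 0. The windows that passed are called eligible, and the 876 variable ones made up 0.175% of them. The windows were chosen by the levels of the 4 normal-diet libraries, so the spread among those is given below as a description. The spread among the NASH libraries was not used for the choice.

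DNA methylation at CpG sites is copied at cell division, and most CpGs of an adult mouse liver are highly methylated outside promoters and enhancers. Mice of an inbred strain share their genome, so a region that differs between individuals of one strain on one diet draws attention. The best known regions of this kind in C57BL/6J mice are metastable epialleles, which are often tied to intracisternal A particle (IAP) retrotransposons and are set early in development. A metastable epiallele is recognised by a level that differs between individuals over neighbouring CpGs and on both strands.

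The samples were 8 whole-genome bisulfite libraries of liver DNA from male C57BL/6J mice, 4 titled NASH (nonalcoholic steatohepatitis) and 4 titled WT, which are the ND (normal diet) columns of the deposited table. Per the series description, mice were bought at 8 weeks of age and fed for 28 weeks, the NASH group on a diet rich in fat, cholesterol and fructose and the ND group on a normal diet, and the genotype field reads WT for all 8. The treatment field disagrees with this grouping, since it reads NASH for the WT-titled samples and WT for the NASH-titled ones. The grouping by titles and column names was kept, and if the treatment field were right, the names NASH and ND would change places throughout. The labels do not say that libraries are separate mice, so p-values measure the spread between libraries.

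Bisulfite turns unmethylated cytosines into bases read as thymine, and the level is the percentage of reads left unconverted. The deposited table gives a level for each cytosine of a CpG, with the 2 strands on separate rows. It lists no read counts, which leaves the depth unknown. It held 30729668 positions on 15 chromosomes in the part used here, with 0 missing levels, so an unmethylated cytosine and a position without reads cannot be told apart where the table shows 0. Zeros made up 12.3% to 12.96% of positions in the NASH libraries and 12.8% to 13.1% in the ND libraries. The table's positions lie 1 base above the 1-based GRCm38.p6 position, since all 256194 CpGs of the RefSeq promoters on these chromosomes (100%) had both rows at that offset. Windows are given below in the table's own coordinates. The liver identity of the DNA was looked at through hepatocyte genes: 119 eligible windows inside the listed hepatocyte genes (Alb, Apob and others) averaged 58.96% to 62.97% in the NASH libraries and 49.6% to 51.5% in the ND libraries. Windows inside the genes of the other cell types listed averaged over 71% in every library.

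Promoters carry much of what is known about methylation and gene activity, and 3 of the 876 windows overlapped one as RefSeq defines its start on GRCm38.p6 (250 bases before to 50 after). Of eligible windows 1.56% overlapped a promoter, and of the variable windows 0.342% did. Those of Fetub and 4930539M17Rik hold CpGs inside the variable window, and they are shown to let the measured cytosines be seen in place. The sequences are RefSeq's, run 5′ to 3′ on the plus strand with each CpG in capitals, and lie (1-based, GRCm38.p6) at chr16:22918132-22918431 for Fetub and chr3:9061714-9062013 for 4930539M17Rik.
Fetub: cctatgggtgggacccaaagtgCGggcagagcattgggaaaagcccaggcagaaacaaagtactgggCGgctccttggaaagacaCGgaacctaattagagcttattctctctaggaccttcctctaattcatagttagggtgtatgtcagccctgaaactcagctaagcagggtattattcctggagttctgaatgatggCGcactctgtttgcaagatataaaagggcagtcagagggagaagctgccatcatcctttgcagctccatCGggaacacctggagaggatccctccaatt
4930539M17Rik: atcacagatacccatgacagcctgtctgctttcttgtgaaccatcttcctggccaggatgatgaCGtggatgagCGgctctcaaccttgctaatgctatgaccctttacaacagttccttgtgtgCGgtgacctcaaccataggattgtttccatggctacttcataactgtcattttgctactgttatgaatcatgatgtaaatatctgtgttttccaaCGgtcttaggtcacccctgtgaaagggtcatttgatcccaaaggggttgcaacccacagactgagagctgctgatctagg

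Fetub encodes fetuin-B, a protease inhibitor that the liver secretes. Its window had levels of 54.0%, 69.7%, 69.0% and 64.0% in NASH libraries 1 to 4, against 52.1%, 40.6%, 70.5% and 34.8% in ND libraries 1 to 4. ND-4 and ND-2 were the low libraries, and the 2 groups overlapped. Inside the printed promoter the first 4 CpGs were at or near full methylation on most rows. The fifth CpG, at base 271 of the sequence, varied between libraries on both strands. On its plus strand the levels were 83.3%, 100%, 71.4% and 60% in NASH libraries 1 to 4, against 50%, 42.9%, 66.7% and 0% in ND libraries 1 to 4. On its minus strand they were 20%, 66.7%, 66.7% and 16.7% in NASH libraries 1 to 4, against 25%, 0%, 0% and 25% in ND libraries 1 to 4. On the plus strand each ND library was below 70%, as was NASH-4. On the minus strand each ND library was at or below 25%, as were NASH-1 and NASH-4. The groups overlapped on both strands, and a level of 0% there may stand for a position without reads. The window's ND range was 35.7 points as deposited and 24.4 points over rows above 0.

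In the 4930539M17Rik window the ND libraries differed little once zeros were set aside. Its levels as deposited were 84.0%, 80.1%, 60.4% and 83.1% in NASH libraries 1 to 4, against 77.0%, 66.0%, 93.3% and 56.03% in ND libraries 1 to 4. ND-4 was the lowest library, and in the promoter its plus-strand level was 0% at the first and second CpG, while its minus-strand level was 100% at both. Its ND range over rows above 0 was 3.71 points. The third promoter, that of Gm29936, holds 1 CpG, whose rows are not in the window.

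The 8 windows with the largest ND spread lay in or near genes with different known roles, or far from any protein-coding gene. The largest range, 53.9 points, was at chr12:81510000-81510999 inside Synj2bp, a protein of the outer mitochondrial membrane, and the overlapping gene Gm20498. Levels there were 94.2%, 90.2%, 84.0% and 83.1% in NASH libraries 1 to 4, against 72.6%, 96.6%, 44.4% and 98.3% in ND libraries 1 to 4. ND-3 was lowest by far, ND-1 was also below the NASH libraries, and ND-2 and ND-4 were above them. The next window, at chr4:127008000-127008999, lies 11.7 kb from Sfpq, which encodes a splicing factor. Levels were 80.1%, 90.8%, 83.0% and 86.0% in NASH libraries 1 to 4, against 96.9%, 44.0%, 54.7% and 96.7% in ND libraries 1 to 4. ND-2 and ND-3 were low, ND-1 and ND-4 high, and all 4 NASH libraries lay between.

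Among the other 6, a single low ND library was the commonest form. At chr3:14461000-14461999, 18.7 kb from the amino acid transporter gene Slc7a12, levels were 75.8%, 73.4%, 84.1% and 84.3% in NASH libraries 1 to 4, against 82.0%, 83.6%, 42.6% and 93.6% in ND libraries 1 to 4. At chr4:85310000-85310999 inside Sh3gl2, which encodes an endophilin of synaptic vesicle recycling, they were 79.4%, 59.5%, 78.9% and 78.9% in NASH libraries 1 to 4, against 89.97%, 44.5%, 84.8% and 95.4% in ND libraries 1 to 4. Library 2 was the lowest of its group in both diets there. At chr5:6223000-6223999, with no protein-coding gene within 50 kb, levels were 54.5%, 63.6%, 77.3% and 79.1% in NASH libraries 1 to 4, against 76.3%, 72.0%, 44.3% and 96.4% in ND libraries 1 to 4. ND-3 was lowest and ND-4 highest, with the NASH libraries spread between them.

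A single high ND library marked both remaining windows that have no protein-coding gene within 50 kb. At chr15:49475000-49475999 levels were 94.3%, 73.6%, 51.4% and 56.5% in NASH libraries 1 to 4, against 47.5%, 50.9%, 47.5% and 97.4% in ND libraries 1 to 4. One library of each group stood above 90%. At chr13:119190000-119190999 they were 70.5%, 67.2%, 68.3% and 54.2% in NASH libraries 1 to 4, against 93.8%, 43.0%, 56.9% and 60.3% in ND libraries 1 to 4. Inside Olfm3, an olfactomedin gene, at chr3:114907000-114907999, they were 95.8%, 63.2%, 78.4% and 68.8% in NASH libraries 1 to 4, against 94.97%, 44.9%, 59.4% and 79.8% in ND libraries 1 to 4. In each of the 8 windows the NASH and ND libraries overlapped.

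**Figure D1:**
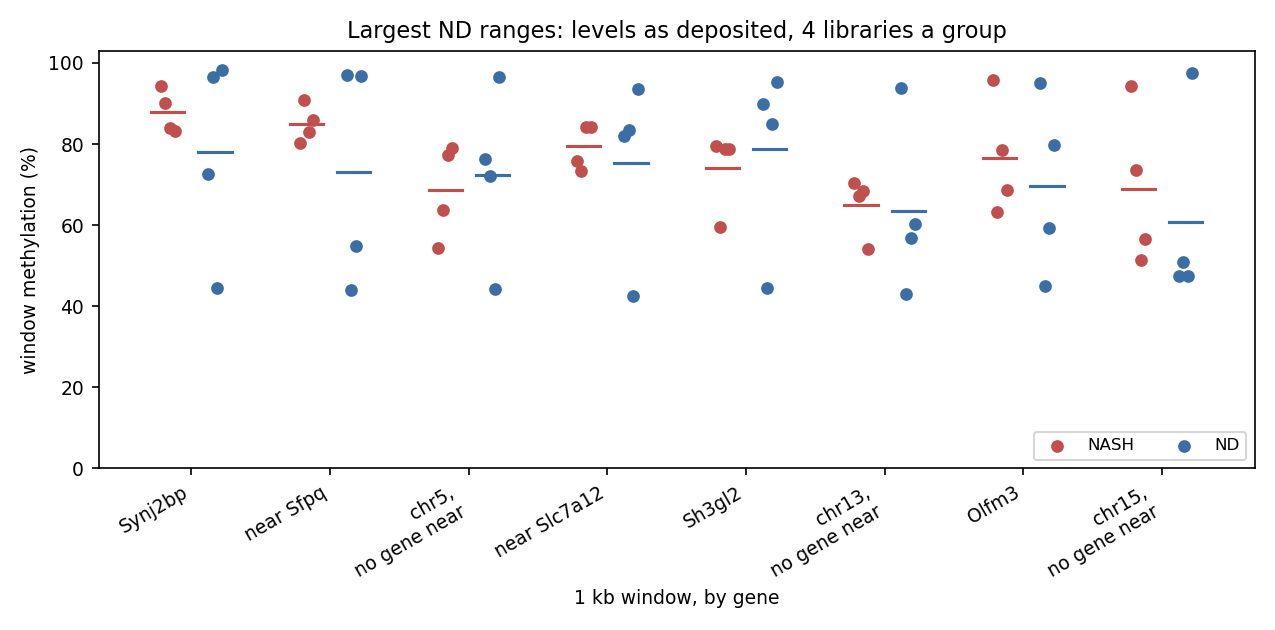
Mean methylation (%) of the 8 windows with the largest ND range, by gene, with 1 point per library and a bar at the group mean, NASH to the left of ND; "no gene near" means no protein-coding gene within 50 kb. The lowest ND library lies between 42.6% and 47.5% in all 8 windows, and the highest between 93.6% and 98.3%. The windows were chosen by the ND levels and with a limit on ND zeros, so these values are a description.

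The whole set had much the same form, and the rule itself bears on it. A range of 35 points or more needs a low and a high ND library. The limit on ND zeros bears on how low a library with many zeros can be. The values below are therefore a description. The ND range had a median of 38.0 points, with quartiles of 36.3 and 40.5 and a highest value of 53.9. The lowest ND library of a window had a median level of 51.4%, and in 745 of the 876 windows it lay between 40% and 60%. The highest ND library had a median of 90.9% and exceeded 80% in 782 windows. Counted at the threshold, 174 members had a range of 35 to 36 points, and 234 eligible windows just missed it with 34 to 35. Chosen over 3 ND libraries instead of 4, the members numbered 502 to 542. When the 4 ND levels were split at their largest gap, 501 members (57.2%) had 1 low library, 178 (20.3%) had 2 high and 2 low, and 197 (22.5%) had 1 high library. Among eligible windows these shares were 42.1%, 26.9% and 30.95%. Each ND library took its turn as the low one. ND-1 was lowest in 191 windows, ND-2 in 242, ND-3 in 250 and ND-4 in 193.

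Rows at exactly 0 went with the low library. In the ND library that was lowest, 41.3% of the window's rows were at 0, against 3.89% in the highest ND library. The lowest ND library was also the one with the most zeros in 833 members (95.1%), compared with 46.6% of eligible windows. These shares are not like for like, since ties in the zero share went to the first library. Many eligible windows had no ND zeros, with a lower quartile of the highest ND zero share of 0%, against 36.7% over members. Members contributed 13197 zeros of 31958 rows in their lowest ND library. At those positions the other 7 libraries averaged 65.8%, and 1.26% of the positions were at 0 in all 8 libraries. A zero share over 30% in some ND library was found in 822 members and in 5.22% of eligible windows. Whether reads were missing at these rows was not tested, because the table holds no counts.

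Over rows above 0 the same windows differed much less. The median ND range was then 7.25 points, and 583 members were under 10 points. Of the 876, 43 kept 25 points or more and 8 kept 35 or more. This also leaves out any cytosine that was truly unmethylated. With only the doubtful zeros left out (a 0 whose 10 nearest rows in that library have a median of 50% or more) the median ND range was 25.2 points, and 271 members kept 35 or more. With the median of the rows in place of their mean it was 33.3 points, and 421 members kept 35 or more. A search of the genome with every zero left out found 38 windows with an ND range of 35 points or more, or 0.00758% of windows, and 8 of these 38 (21.1%) were members. When only the zero share was allowed to differ between ND libraries, at the window's mean level above 0, the median range was 34.6 points. When only the level above 0 was allowed to differ, it was 5.83 points. The level gave the larger of the 2 ranges in 39 members.

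**Figure D2:**
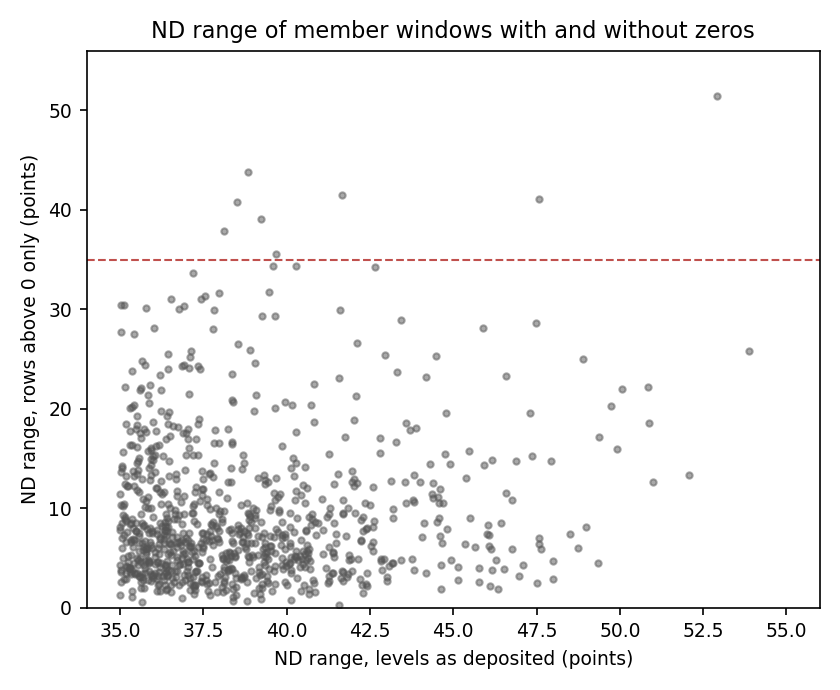
Range over the 4 ND libraries (percentage points) of each of the 876 windows with the levels as deposited, on the horizontal axis, and with rows above 0 only, on the vertical axis; the dashed line is at 35 points. Most points lie low, with a median of 7.25 points, and 8 windows lie above the line.

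The zeros were also uneven between the strands of the same CpGs. Methylation of a CpG is copied to both strands, and the table lists the plus-strand and minus-strand cytosine apart. In the lowest ND library the zero share averaged 32.9% on plus-strand rows and 48.8% on minus-strand rows. In the highest ND library these shares were 2.72% and 4.45%. Over all positions and libraries they were 12.4% and 13.2%. In 206 members (23.5%) the lowest ND library had 80% or more zeros on one strand and 20% or less on the other, and its median level in these windows was 49.2%. With 50% or more on one strand and 20% or less on the other, the count was 553 members (63.1%). The shares over eligible windows were not computed. The rule bears on this form, since it leaves out windows where an ND library has over 50% zeros over both strands. Of the 206, the minus strand held the zeros in 136 and the plus strand in 70. An ND range of 35 points or more was present on both strands, each taken alone, in 150 of the 876.

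A window of 60 CpGs at chr1:85144000-85144999, 10.2 kb from Gm38510, shows this form. Levels were 75.8%, 69.96%, 60.5% and 74.0% in NASH libraries 1 to 4, against 82.0%, 52.9%, 91.5% and 75.3% in ND libraries 1 to 4. ND-2 was lowest and ND-3 highest, with the groups overlapping. ND-2 had 0% zeros on the plus strand and 86.7% on the minus strand, and the lowest NASH library, NASH-3, had 0% and 73.3%. Where the table showed more than 0, the 4 NASH libraries averaged between 93.8% and 97.6% and the 4 ND libraries between 93.3% and 96.4%.

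**Figure D3:**
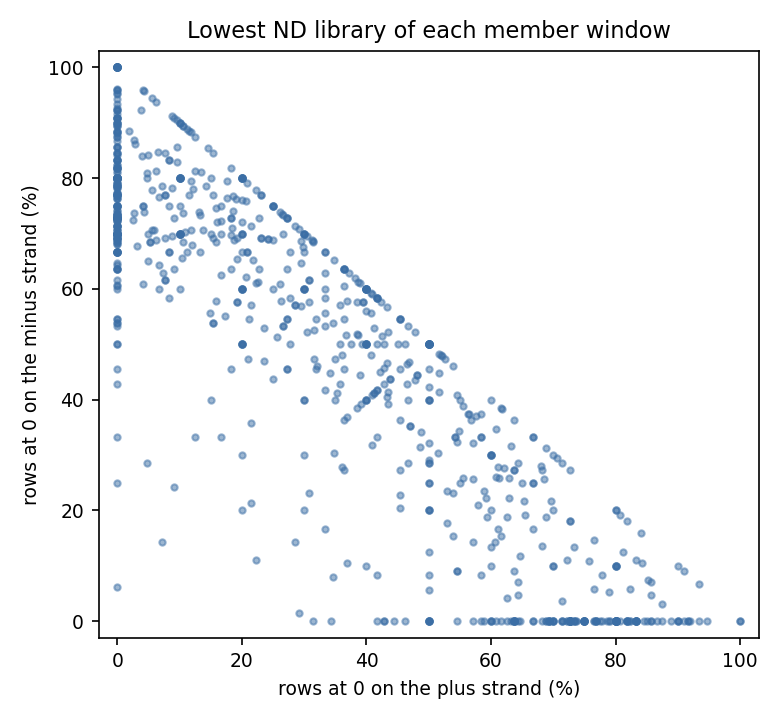
Share of rows at exactly 0 (%) in the lowest ND library of each of the 876 windows, on plus-strand rows (horizontal) and minus-strand rows (vertical). Points in the top left and bottom right corners are windows whose zeros lie on a single strand, with 136 windows in the first corner (80% or more on the minus strand, 20% or less on the plus strand) and 70 in the second.

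The NASH libraries, which took no part in the choice, also varied in these windows. The median NASH range over the 876 windows was 20.2 points, with quartiles of 12.6 and 28.5 and extremes of 0.527 and 54.9. Over all eligible windows the median was 6.97 points. A NASH range of 35 points or more was found in 95 members (10.8%) and in 0.244% of eligible windows. The windows share the same NASH libraries and are not replicates, so these shares are a description. Intermediate windows have more room to vary, and of eligible windows with a NASH mean of 30% to 70% the share was 0.914%. In 280 members the NASH libraries stayed within 15 points of each other. In 55 members the NASH range was larger than the ND range, and in 534 all 4 NASH levels lay inside the ND range.

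Zeros moved with the NASH spread as well. Of the 95 windows, 89 had the most NASH zeros in their lowest NASH library. Among the 407 members with a zero share over 30% in some NASH library, 22.9% had a NASH range of 35 points or more, compared with 5.55% of the 20474 eligible windows with such a zero share. A NASH library with more than 50% zeros, which the rule does not exclude, was present in 46 members. Over rows above 0 the median NASH range was 6.24 points and 1 member had 35 points or more. Genome-wide, with every zero left out, 0.00778% of windows had a NASH range that large. The part of read coverage in the shared spread was not tested.

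**Figure D4:**
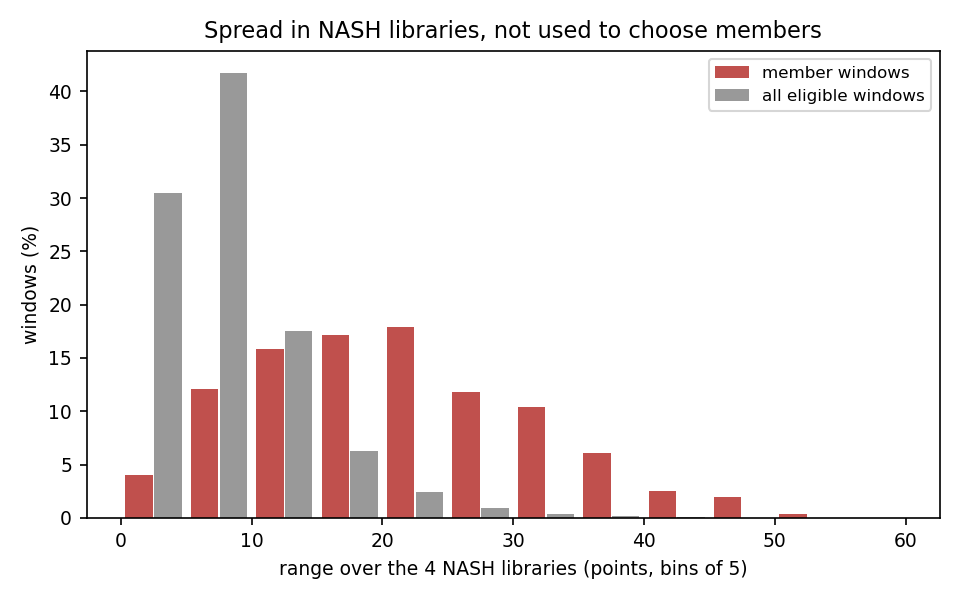
Percentage of windows in each 5-point bin of the range over the 4 NASH libraries (0 to 60 points), for the 876 windows and for all 501380 eligible windows. The variable windows have a median of 20.2 points and the eligible windows of 6.97 points, and 10.8% and 0.244% lie at 35 points or more.

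The 8 windows with the largest NASH spread lay in 2 genes, near 4 and away from protein-coding genes in 2. The widest, 54.9 points, was at chr15:39173000-39173999, 24.3 kb from Rims2, a presynaptic scaffold gene. Levels were 86.1%, 82.9%, 31.2% and 65.2% in NASH libraries 1 to 4, against 78.1%, 39.9%, 72.9% and 69.8% in ND libraries 1 to 4. NASH-3 and ND-2 were low and the groups overlapped. At chr3:75352000-75352999 inside the WD-repeat gene Wdr49 levels were 83.7%, 80.2%, 56.1% and 31.6% in NASH libraries 1 to 4, against 45.8%, 62.0%, 70.4% and 89.9% in ND libraries 1 to 4. NASH-4 and ND-1 were lowest, with 65.9% and 50% of their rows at 0.

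At chr14:95803000-95803999, with no protein-coding gene within 50 kb, levels were 96.3%, 99.0%, 98.3% and 48.6% in NASH libraries 1 to 4, against 52.2%, 97.3%, 95% and 71.2% in ND libraries 1 to 4. NASH-4 and ND-1 each had 0% zeros on the plus strand and 93.3% on the minus strand. At chr4:150659000-150659999, 6.82 kb from the sugar transporter gene Slc45a1, levels were 88.7%, 46.1%, 95.7% and 94.4% in NASH libraries 1 to 4, against 55.4%, 92.4%, 54.0% and 85.7% in ND libraries 1 to 4. In NASH-2 100% of plus-strand rows and 0% of minus-strand rows were at 0. The range there over rows above 0 was 4.61 points in the NASH libraries and 3.90 points in the ND libraries.

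At chr1:192487000-192487999 inside the potassium channel gene Kcnh1 levels were 91.4%, 43.4%, 77.0% and 92.4% in NASH libraries 1 to 4, against 50.1%, 89.5%, 52.7% and 51.4% in ND libraries 1 to 4. The low libraries were NASH-2 and all ND libraries other than ND-2. The remaining 3 windows were near the olfactory receptor gene Olfr170, near the ubiquitin ligase gene Rnf217, and on chromosome 18 with no protein-coding gene within 50 kb. In that order their NASH ranges were 48.3, 48.2 and 49.5 points, and their ND ranges 40.1, 40.8 and 37.1 points. Their NASH ranges over rows above 0 were 8.52, 4.32 and 10.3 points and the ND ranges 3.77, 2.80 and 6.17 points. The groups overlapped in each.

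In other windows the NASH libraries were close together while the ND libraries were far apart. The tightest of those named was at chr1:123557000-123557999 inside Dpp10, whose product binds potassium channels. Levels were 57.1%, 58.6%, 59.3% and 57.7% in NASH libraries 1 to 4, against 72.7%, 83.2%, 59.3% and 39.7% in ND libraries 1 to 4. Each NASH library had 25% to 30% of its rows at 0, while the ND libraries had 0% to 40%. At chr10:7866000-7866999 inside Zc3h12d, a gene of the CCCH zinc-finger ribonuclease family, levels were 86.2%, 79.8%, 83.3% and 85.0% in NASH libraries 1 to 4, against 89.3%, 79.9%, 96.6% and 49.5% in ND libraries 1 to 4. ND-4 alone was low, with 50% of rows at 0 and a level of 99.0% over the rest.

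At chr4:80803000-80803999, 30.1 kb from the melanin synthesis gene Tyrp1, levels were 46.9%, 47.9%, 41.8% and 44.5% in NASH libraries 1 to 4, against 47.7%, 52.7%, 94.1% and 63.7% in ND libraries 1 to 4. The NASH levels were all low together, with 50% to 57.1% of rows at 0. Every library there was at 88.9% or more over rows above 0.

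A small group kept its spread without zeros. The 8 windows with an ND range of 35 points or more over rows above 0 were singled out after their values were seen. The counts of shared positions below compare the lowest and the highest ND library over rows above 0. Those libraries were picked from the same values, so the counts are a description and no separate support. The Sfpq window came first, with levels over rows above 0 of 86.9%, 92.3%, 83.0% and 88.7% in NASH libraries 1 to 4, against 96.9%, 45.4%, 73.0% and 96.7% in ND libraries 1 to 4. ND-2 was below ND-1 at 42 of the 43 positions with a level above 0 in all 8 libraries, and the ND range, zeros included, was 49.1 points on the plus strand and 59.1 points on the minus strand. One kb further on ND-2 was again the lowest ND library, at 76.2%, with an ND range of 22.5 points over rows above 0.

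Near Rims2 the spread without zeros was present in both diets. Levels over rows above 0 were 96.9%, 96.3%, 42.3% and 90.3% in NASH libraries 1 to 4, against 87.8%, 58.7%, 95.4% and 96.6% in ND libraries 1 to 4. NASH-3 and ND-2 were low, and the NASH range of 54.5 points made this the 1 member above 35 points in the NASH libraries over rows above 0. ND-2 was below ND-4 at 42 of 45 shared positions. The window 1 kb further on had an ND range of 32.6 points over rows above 0, with ND-1 as its lowest library.

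Ect2l, a gene related to the guanine exchange factor Ect2, held another at chr10:18139000-18139999. Levels over rows above 0 were 81.1%, 85.9%, 72.6% and 80.1% in NASH libraries 1 to 4, against 62.2%, 38.4%, 77.6% and 72.1% in ND libraries 1 to 4. ND-2 was lowest and was below ND-3 at 49 of 52 shared positions. The windows 1 kb to each side had ND ranges of 3.06 and 2.70 points over rows above 0. Inside Actr3b, which encodes an actin-related protein, at chr5:25768000-25768999, levels over rows above 0 were 51.8%, 60.8%, 61.4% and 80.2% in NASH libraries 1 to 4, against 63.6%, 48.6%, 82.8% and 42.0% in ND libraries 1 to 4. ND-4 was lowest and ND-3 highest, and the NASH libraries lay between them. The ND range there, zeros included, was 67.9 points on the plus strand and 18.7 points on the minus strand.

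The long noncoding RNA gene Gm26760 held the fifth, at chr15:92352000-92352999, with levels over rows above 0 of 54.0%, 54.0%, 60.7% and 66.0% in NASH libraries 1 to 4, against 43.0%, 71.3%, 46.0% and 30.2% in ND libraries 1 to 4. ND-4 was below ND-2 at all 17 shared positions. At chr11:8045000-8045999, with no protein-coding gene within 50 kb, levels over rows above 0 were 59.9%, 72.5%, 76.2% and 68.0% in NASH libraries 1 to 4, against 52.2%, 85.9%, 57.3% and 50.4% in ND libraries 1 to 4. ND-4 was below ND-2 at 9 of 13 shared positions there. The windows in Nrros, a gene of macrophages and microglia, and Prdm16, a regulator of brown fat, had NASH ranges over rows above 0 of 27.1 and 30.4 points and ND ranges of 43.8 and 41.5 points. They had 5 and 3 positions above 0 in all 8 libraries, so these ranges rest on rows that differ between libraries. At Nrros the highest ND library over rows above 0 was above the lowest at 2 of its 5 shared positions. None of these 8 windows (0) showed the single-strand form of zeros at the cut of 80% on 1 strand and 20% on the other. At the looser cut of 50% and 20%, the chr11:8045000-8045999 and Prdm16 windows did, and the rest did not. The lowest ND library as deposited had 73.3% zeros on the plus strand and 0% on the minus strand in the first. In the Prdm16 window these shares were 7.69% and 61.5%.

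**Figure D5:**
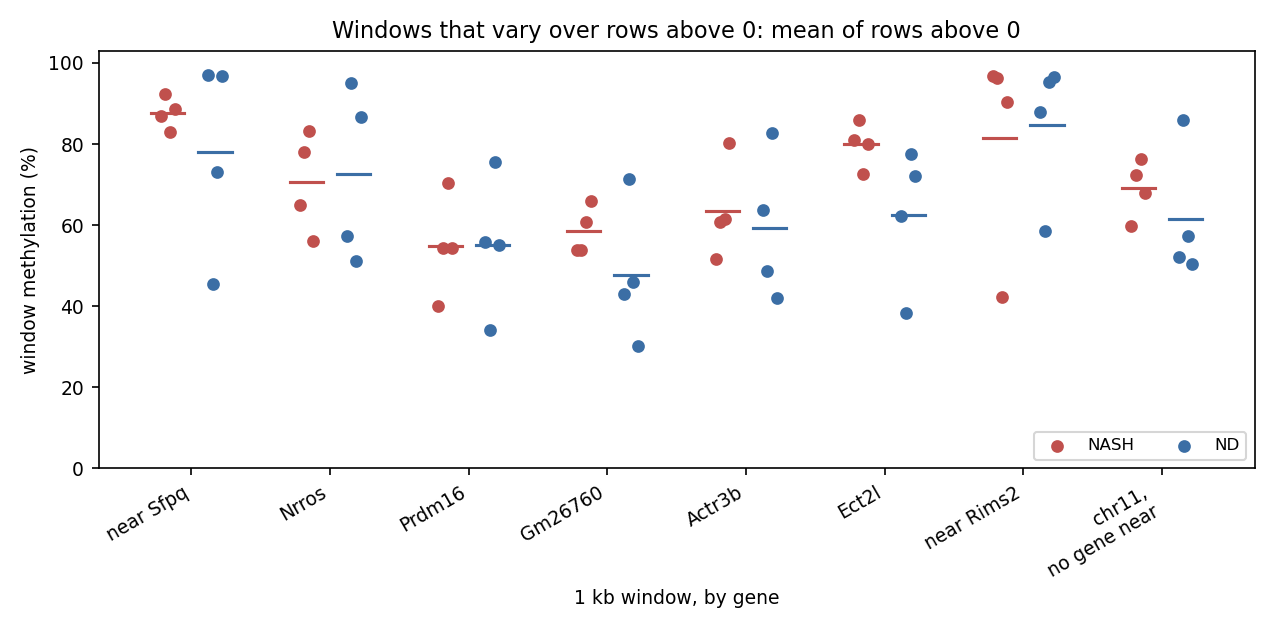
Mean methylation (%) over rows above 0 of the 8 windows whose ND range stayed at 35 points or more without zeros, by gene, with 1 point per library and a bar at the group mean, NASH to the left of ND. ND-2 is the lowest ND point in the Sfpq, Prdm16, Ect2l and Rims2 windows, and the Rims2 window also has a low NASH library at 42.3%.

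The variable windows lay outside genes more often than eligible windows did. Of the 876, 297 (33.9%) overlapped a protein-coding gene span, compared with 53.4% of eligible windows. In all, 481 (54.9%) overlapped no annotated gene of any kind, compared with 37.1%. A total of 27 (3.08%) lay within 1 kb of an end of a protein-coding gene, compared with 5.80%. These shares describe the windows and were not tested. The windows were spread over all 15 chromosomes, from 28 on chromosome 19 to 96 on chromosome 1, or 0.132% of eligible windows on chromosome 11 to 0.228% on chromosome 14.

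They were also richer in rows and more often intermediate in level. The median member had 30 rows and the median eligible window 26, and 99 members (11.3%) had 60 rows or more, compared with 1.97% of eligible windows. An ND mean between 30% and 70% was found in 332 members (37.9%) and in 15.3% of eligible windows, and 0 members had an ND mean under 30%. Most members, 544 (62.1%), had an ND mean over 70%, compared with 83.7% of eligible windows. The ND mean is taken from the levels the rule used, so these shares are a description. The 2 windows with the most rows, 146 at Grin3b and Tmem259 on chromosome 10 and 130 at Zc3h12d, were unlike without zeros. Their ND range over rows above 0 was 3.74 points at the first and 34.4 points at the second.

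Variable windows were mostly alone. The 876 formed 864 runs when starts up to 2 kb apart were joined, 12 runs held 2 members and none (0) held more. In 7 of the 12 the same ND library was lowest in both windows. All 12 tie at 2 members. By the naming rule ties go by chromosome and start, which named those near Gm38510, near Dnm3, and in 1700123O12Rik and Zcchc7. At Dnm3, which lies 10.7 kb away and encodes a dynamin, the first window had levels of 69.6%, 82.7%, 79.4% and 93.3% in NASH libraries 1 to 4, against 84.0%, 90.3%, 90.8% and 54.1% in ND libraries 1 to 4. The second had 78.4%, 50.4%, 67.2% and 66.8% in NASH libraries 1 to 4, against 65.7%, 76.7%, 87.5% and 50.05% in ND libraries 1 to 4. ND-4 was lowest and ND-3 highest in both.

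In the noncoding gene 1700123O12Rik the first window had 79.1%, 75.9%, 79.9% and 72.2% in NASH libraries 1 to 4, against 89.9%, 84.3%, 52.9% and 82.0% in ND libraries 1 to 4. In Zcchc7, which encodes a zinc-knuckle protein, it had 54.1%, 81.1%, 62.9% and 66.6% in NASH libraries 1 to 4, against 85.2%, 47.1%, 70.2% and 64.97% in ND libraries 1 to 4. At both genes a different ND library was lowest in the second window. The 632 eligible neighbours at 1 kb that were not members had a median NASH range of 9.62 points and a median ND range of 9.45 points. The ND library that was lowest in the member was lowest in 28.5% of these neighbours. At 10 kb the medians were 7.30 points in the NASH libraries and 6.64 points in the ND libraries, and that library was lowest in 22.5%.

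Members inside genes of liver metabolism were looked up after their values were seen, and support nothing about liver genes as a group. Hsd3b5, a steroid-metabolising enzyme of male mouse liver, had levels of 77.9%, 74.3%, 65.9% and 60.2% in NASH libraries 1 to 4, against 42.3%, 64.5%, 85.8% and 49.4% in ND libraries 1 to 4. Rbp4, the plasma retinol carrier made by the liver, had 77.1%, 74.2%, 70% and 71.2% in NASH libraries 1 to 4, against 74.2%, 82.5%, 37.9% and 71.0% in ND libraries 1 to 4. Their ND ranges over rows above 0 were 12.7 points at Hsd3b5 and 11.9 points at Rbp4.

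Cat, the catalase gene, was low and variable in most libraries. Its window at chromosome 2 had levels of 38.7%, 32.7%, 44.2% and 57.4% in NASH libraries 1 to 4, against 33.8%, 26.2%, 48.8% and 11.6% in ND libraries 1 to 4. ND-4 was lowest, and the ND range was 33.7 points over rows above 0. Ppargc1a, which encodes the coactivator of mitochondrial and gluconeogenic genes PGC-1alpha, had 47.4%, 73.7%, 82.5% and 87.3% in NASH libraries 1 to 4, against 49.4%, 87.3%, 74.9% and 95.5% in ND libraries 1 to 4. Its ND range over rows above 0 was 7.33 points. Srebf1, a regulator of lipid synthesis, had 79.2%, 68.7%, 67.5% and 74.3% in NASH libraries 1 to 4, against 74.6%, 80.4%, 76.8% and 44.2% in ND libraries 1 to 4. Its window also overlaps Mir6922, the 1 miRNA hairpin met by a member, and the ND range over rows above 0 was 6.93 points. In all 5 genes the NASH and ND libraries overlapped.

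None of the lists of cell-type, imprinted, germline or IAP genes had a member within 5 kb. The count was 0 for hepatocyte genes (172 eligible windows), macrophage (87), neutrophil (73), lymphocyte (57), stellate and matrix (250), endothelial (168) and cholangiocyte genes (54). It was also 0 for imprinted genes (630) and for germline genes (99). The literature loci of variable IAP insertions, Cdk5rap1, agouti (a) and Axin1, had 129 eligible windows and 0 members. Repeats were not annotated, so whether these mice carry an insertion at each locus was not looked at. The count of 0 therefore says nothing about insertions that may be absent. At Cdk5rap1 the highest range was 28.6 points in the NASH libraries and 23.4 points in the ND libraries, over 46 eligible windows. Genes of clustered multi-copy families such as Olfr and Vmn2r had 10 members of 7007 eligible windows, or 0.143%, beside 0.175% of all eligible windows. At the background share of 0.175%, most of these lists have too few eligible windows for 1 member to be likely, so a count of 0 says little about any single list.

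Averaged over the 876 windows, the level was 74.0%, 72.9%, 74.3% and 74.6% in NASH libraries 1 to 4, against 73.4%, 69.98%, 71.1% and 73.3% in ND libraries 1 to 4. The groups overlapped, with ND-2 and ND-3 lowest. The means were 73.9% ± 0.739 in the NASH libraries and 71.9% ± 1.67 in the ND libraries (SD, n = 4 each), a difference of 2.001 points. Over rows above 0 the means were 89.0% ± 0.467 in the NASH libraries and 89.2% ± 0.664 in the ND libraries (SD, n = 4 each). The share of rows at 0 was 16.9% ± 0.943 in the NASH libraries and 19.6% ± 1.54 in the ND libraries (SD, n = 4 each). With windows chosen again over the other ND libraries, the difference was 3.17 points without ND-3 and 3.21 points without ND-4. The rule used the ND levels and requires a low ND library, so these differences are a description of the chosen windows, with no test.

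Window by window, limma on the levels of all 501380 eligible windows called 0.821% of them different between NASH and ND at a Benjamini-Hochberg adjusted p under 0.05, and 1 of the 876 members. A large ND spread is part of the rule and raises the error of the comparison, so nothing is read from that count, and single p-values of members are descriptions. The call count over eligible windows depended on single libraries, with 0 calls without NASH-4, 3 without ND-1 and 5 without ND-4. The NASH and ND libraries did not overlap in 4 members, compared with 8.43% of eligible windows. They included the windows in Mecom and Pcdh15.

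The called window was at chr3:30080000-30080999 inside Mecom, which encodes a zinc-finger transcription factor of blood stem cells. Levels were 45.2%, 26.6%, 58.7% and 56.8% in NASH libraries 1 to 4, against 94.2%, 59.9%, 97.0% and 93.4% in ND libraries 1 to 4. All NASH libraries lay below all ND libraries, with ND-2 just above NASH-3. The difference was -39.3 points with a standard error of 8.22 (limma adjusted p = 0.0477). Zeros made up 50%, 68.4%, 36.8% and 36.8% of rows in NASH libraries 1 to 4, against 0%, 31.6%, 0% and 0% in ND libraries 1 to 4. Over rows above 0 the levels were 90.5%, 84.3%, 93.0% and 89.9% in NASH libraries 1 to 4, against 94.2%, 87.5%, 97.0% and 93.4% in ND libraries 1 to 4. The groups then overlapped. The difference over rows above 0 was -3.61 points (limma adjusted p = 0.44). Leaving out any NASH library, ND-1, ND-3 or ND-4 ended the call, with limma adjusted p of 0.0601 to 0.130, and leaving out ND-2 kept it at -48.0 points (limma adjusted p = 0.0456).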

How the data were processed

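Whole-genome bisulfite sequencing of mouse liver DNA was analysed from 1 deposited table of percent methylation per cytosine, with 4 NASH and 4 ND columns. Per the labels' protocols, DNA was sonicated, bisulfite-treated and made into libraries. The submitters' processing notes name FastQC and mm10. The aligner, methylation caller and coverage filter were not given in the sources used here. Percent values were used as deposited, with exact zeros kept. Chromosomes 6 to 9, X and Y and the rest of chromosome 5 were not analysed here.

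Each window took the plain mean of its rows in each library. Of 552647 windows with 20 or more rows, 51267 were left out for zeros in an ND library, and 1798 of these had an ND range of 35 points or more. Differences between NASH and ND were tested on window means over all eligible windows with limma 3.58.1 (mean-dependent prior variance, Benjamini-Hochberg adjustment). Member means by library are given with no test, since the rule used the ND levels and a permutation of the groups over them would be void. The limma step was tested on simulated data. Gene spans and promoters came from RefSeq tables of GRCm38.p6. The windows named were the 8 runs of largest ND range, the 8 of largest NASH range, the 5 of largest ND minus NASH range, the called members and the 4 first by chromosome and start of the runs tied for most members, and further windows named after their values were seen are marked so. A gene is named where it overlaps a window, otherwise the nearest protein-coding gene within 50 kb.

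The members, gene lists and tests were chosen with earlier results of these data known. Same-numbered NASH and ND libraries did not deviate together over eligible windows, so the numbers were not taken as pairs. Alternatives were leaving out doubtful zeros (a 0 whose 10 nearest rows in that library have a median of 50% or more), leaving out every zero, row medians, 30 or more rows, windows moved by 500 bases, other ranges, single strands, other limma settings and each library left out in turn. Using only rows above 0 in all 8 libraries was added after the data were examined. Python 3.11.15, numpy 2.4.6, pandas 2.3.3, matplotlib 3.10.9 and R 4.3.3 were used.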

Additional observations from a re-analysis of the deposited data

Results flagged for a closer look

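In 9 of 66 groups of 4 libraries checked, 1 library stood far from the other 3, with a gap to its nearest neighbour above Dixon's critical share of the group's whole range. Chance gives about 1 group in 20, which is no fair comparison here. The windows were chosen for their ND spread, and several were named for their NASH spread, among them those at chr14:95803000-95803999 and near Slc45a1, so the outlying libraries are not independent of the choice.

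Among the NASH libraries, NASH-2 was low in Sh3gl2 (59.5%, gap 0.971 of the range), with 31.6% of rows at 0 and a level of 86.9% over the rest. NASH-4 was low at chr14:95803000-95803999 (48.6%, gap 0.946), with 46.7% of rows at 0 and 91.1% over the rest. NASH-2 was low near Slc45a1 (46.1%, gap 0.859), with 50% of rows at 0 and 92.2% over the rest.

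Among the ND libraries, ND-4 was high at chr15:49475000-49475999 (97.4%, gap 0.933) and in Nrros (81.4%, gap 0.875). ND-2 was high in Kcnh1 (89.5%, gap 0.934), and ND-1 was high near Olfr170 (95.1%, gap 0.847). ND-2 was low in Mecom (59.9%, gap 0.903), with 31.6% of rows at 0 and 87.5% over the rest. ND-2 was also low in the mean over all 876 windows of rows above 0 (88.2%, gap 0.858). This was not particular to the 876 windows. Over all eligible windows, with levels as deposited, ND-2 was at 80.3% and ND-1, ND-3 and ND-4 each at 81.1%.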

How the results depend on the processing

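The number of variable windows depended on how zeros were treated. Under each alternative the windows were chosen again, except where a NASH library was left out, so the values here are over differing sets: 271 of the 1230 windows found without doubtful zeros, 421 of the 5527 found with row medians and 8 of the 38 found without any zero were among the 876. The number was 38 with every zero left out, 12 over rows above 0 in all 8 libraries, 5527 with row medians, 462 with 30 or more rows, 2580 at a range of 30 points and 252 at 40 points, and 502 to 876 when each library was left out in turn. The share with a NASH range as large was 26.4% without doubtful zeros, 2.63% without any zero, 8.33% over rows above 0 in all 8 libraries, 29.3% with row medians, 15.7% at 30 points, 7.94% at 40 points and 6.51% to 13.55% with a library left out. The lower values with a NASH library left out come from a range over fewer libraries. The choice over rows above 0 in all 8 libraries asked for 20 or more such rows in a window. The median NASH range over the windows chosen again lay between 15.02 and 25.13 points. Over the 876 windows themselves it was 10.7 points without doubtful zeros, 6.24 points without any zero and 14.3 points with row medians. Over rows above 0 in all 8 libraries it was 6.61 points, for the 728 members with 10 or more such rows.

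The NASH minus ND difference of the mean level was 0.196 points without doubtful zeros, 0.965 with row medians, 2.38 with windows moved by 500 bases, 3.31 without any zero, 4.61 over rows above 0 in all 8 libraries and 1.79 to 3.21 with a library left out. Eligible windows called by limma numbered 8222 without doubtful zeros, 8536 without any zero, 6567 over rows above 0 in all 8 libraries, 797 with row medians, 1264 with 30 or more rows, 6430 with a constant prior variance and 0 to 2403 with a library left out. Windows called among those chosen again numbered 4 of 1230 without doubtful zeros and 0 without any zero, with 30 or more rows, with moved windows, with a constant prior variance and with any library left out. At Mecom the difference was -27.0 points without doubtful zeros (limma adjusted p = 0.214) and -43.3 points with row medians (limma adjusted p = 0.624), and limma adjusted p over all its alternatives ran between 0.0423 and 0.624. With the replicate number as a replicate block, 0 eligible windows and 0 members were called, and with every zero left out and the replicate block 7723 eligible windows and 0 members. The deviations of same-numbered libraries correlated at -0.00325 to 0.00801 over eligible windows and at -0.0571 to 0.0126 over members. Whether same-numbered libraries shared a step of preparation was not tested. The cause of these changes was not tested.

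The ND range of 22 of the 30 named windows moved when every zero was left out, 9 when doubtful zeros were, 8 with row medians and 16 on either strand alone. The 8 that did not move with every zero left out were those singled out above for keeping their range there. Their result was set by that choice. Without read counts the precision of a level cannot be given.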
